A study of Mus musculus with 5 samples.

Results

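The 9 genes described here encode the tight junction of brain endothelium: 2 claudins (*Cldn5*, *Cldn12*), occludin (*Ocln*), the adhesion molecules *F11r*, *Jam2* and *Esam*, the tricellular protein *Lsr*, and the scaffolds *Tjp1* and *Cgnl1*. They were chosen by name for their known place in the junction and not by a rule on their values, though earlier results of these data were known. They are 9 of the 34615 gene symbols in the data. All 9 passed the filter of a mean FPKM (sequenced fragments divided by exon length and by the library's number of mapped fragments) of at least 1, which left 16286 genes to test. RNA was sequenced from brain microvascular fragments of 3 wild-type (WT) mice and 2 heterozygous Ins2-AKITA mice (Ins2AKITA), with 1 library per mouse. All 5 were C57BL6 males between 26 and 38 weeks of age, and the WT mice were littermate controls. In Ins2AKITA mice 1 copy of the insulin 2 gene is mutated, and the animals lose insulin-producing beta cells and become hyperglycemic, so that the model is one of systemic high glucose and not of a change made in the vessels. The fragments were captured with beads that bind PECAM1 and hold endothelial cells together with attached pericytes and astrocyte end-feet. All values are therefore from bulk samples, in which fewer cells of a type and less RNA per cell cannot be told apart. Nor can the cell type that each member's RNA came from be told.

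Tight junctions seal the space between neighbouring cells. In brain capillaries, where endothelial cells form the blood-brain barrier, claudin and occludin strands span the cleft, adhesion molecules of the immunoglobulin family lie beside them, and scaffold proteins of the zonula occludens and cingulin families tie all of these to the actin cytoskeleton. Where 3 cells meet, angulins such as LSR recruit tricellulin. The comparison of Ins2AKITA with WT mice addresses whether long-lasting hyperglycemia alters the RNA of these junction components.

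Many of the membrane proteins bind the scaffolds through their carboxy-terminus, which fits into PDZ domains of the zonula occludens proteins. The last 30 coding bases before the stop codon are shown for 7 of the membrane proteins, to let this end be compared between them. They were read from the longest coding transcript of the GENCODE vM1 annotation of mouse assembly NCBIM37, and the capitals mark the last 3 codons.
Cldn5: aatggcgattacgacaagaagAACTATGTC
Cldn12: atcgacattccagtagtctcaCACAGCACT
Ocln: atggtgggagattatgacagaCGGAAACCT
F11r: gaattcaaacagacctcgtcgTTCCTGGTG
Jam2: gatttcaagcacacaaaatccTTTATAATT
Esam: cctgcacagagtcaggctgggTCTCTTGTG
Lsr: ttggccctgagtcgggaaagtTTAGTCGTC
The last codon was GTC in *Cldn5* and *Lsr*, GTG in *F11r* and *Esam*, and ATT in *Jam2*, all of which code for valine or isoleucine, the residues usual at the end of a PDZ-binding motif. It was ACT in *Cldn12*, a claudin known to lack such a motif, and CCT in *Ocln*, which binds the scaffold through another region. Without the stop codon the 7 coding sequences ran from 218 codons in *Cldn5* to 594 in *Lsr*.

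Promoter sequences from RefSeq (GRCm38.p6) covered 7 of the 9 genes. The 250 bases before the start site are shown for *Cldn5*, the member with the highest RNA level, and for *Lsr*, the member with the largest difference between the genotypes. Each is on its gene's strand, chr16:18776597-18776846 (plus) for *Cldn5* and chr7:30973470-30973719 (minus) for *Lsr*. Capitals mark the letters of a GC box (GGGCGG) or of an ETS motif (CCGGAAG), the motif of a transcription factor family active in endothelium, on either strand.
Cldn5: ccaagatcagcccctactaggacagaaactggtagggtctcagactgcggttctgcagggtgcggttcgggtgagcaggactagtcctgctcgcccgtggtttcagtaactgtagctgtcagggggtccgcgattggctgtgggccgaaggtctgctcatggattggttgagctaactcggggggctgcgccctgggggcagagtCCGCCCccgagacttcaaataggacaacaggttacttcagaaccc
Lsr: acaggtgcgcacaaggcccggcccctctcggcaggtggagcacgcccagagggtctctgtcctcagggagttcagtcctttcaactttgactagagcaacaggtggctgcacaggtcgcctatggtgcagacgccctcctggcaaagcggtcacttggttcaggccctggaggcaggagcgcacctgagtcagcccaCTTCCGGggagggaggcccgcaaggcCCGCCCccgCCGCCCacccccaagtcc
The *Cldn5* window held 1 GC box and 12 CpG dinucleotides, and the *Lsr* window held 2 GC boxes, 1 ETS motif and 13 CpG dinucleotides, against a median of 6 CpG over all 32851 promoter windows. A GC box was found in at least 1 window of 7 of 7 members and in 32.7% of all windows, and an ETS motif in 2 of 7 (*Cldn12* and *Lsr*) and in 6.91% of all windows. No member had a TATA box (TATAAA), which 12.4% of all windows held. Some members have several start sites with overlapping windows, and a match says only that the letters are present.

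In WT mice the *Cldn5* level was the highest of the 9, at 126 ± 49.3 FPKM (SD, n = 3), followed by *Tjp1*, *Esam*, *Cgnl1*, *Ocln*, *Lsr* and *Jam2*, with *F11r* and *Cldn12* far lower. FPKM is divided by length, so that levels of different genes can be set side by side. Among the 16286 genes tested, *Cldn5* stood at the 96.8th percentile of the WT mean and *Cldn12* at the 25.9th. The WT ranges of neighbours did not overlap for *Cldn5* and *Tjp1*, *Cgnl1* and *Ocln*, *Jam2* and *F11r*, or *F11r* and *Cldn12*. They overlapped for *Tjp1* and *Esam*, *Esam* and *Cgnl1*, *Ocln* and *Lsr*, and *Lsr* and *Jam2*, so that the order within these pairs is not larger than the spread between mice. *Ocln* was nevertheless above *Lsr* in each of the 5 mice.

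**Figure D1:**
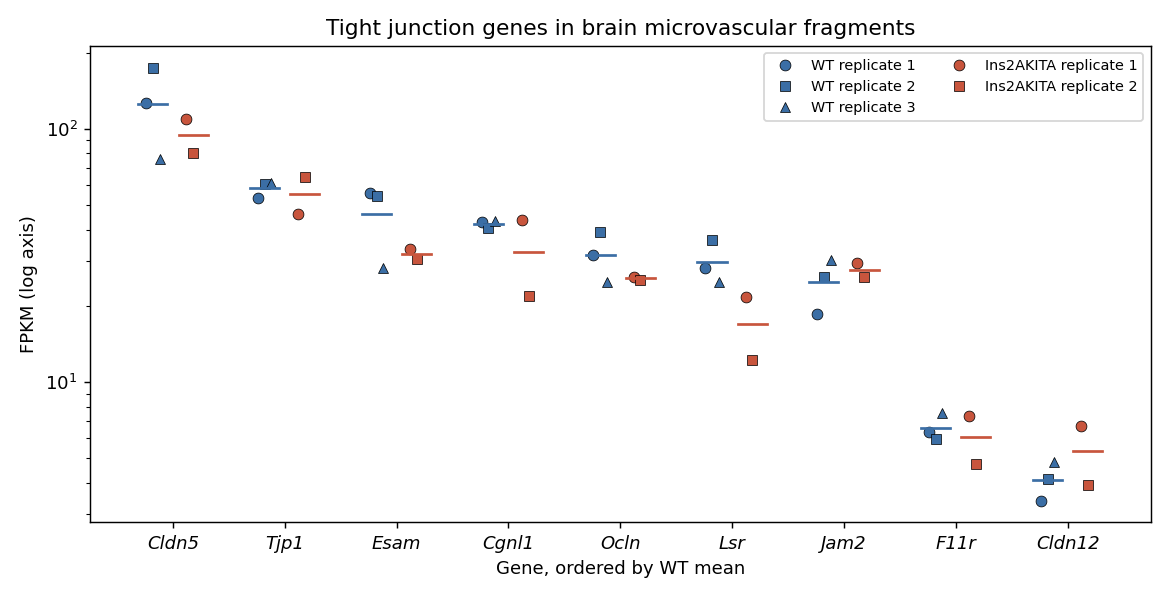
FPKM of the 9 tight junction genes on a log axis, with 1 point per mouse (3 WT, 2 Ins2AKITA) and a bar at each group's mean. *Lsr* is the only gene whose 2 Ins2AKITA mice (21.7 and 12.3 FPKM) both lie below all WT mice, and the order from *Cldn5* at the top to *Cldn12* at the bottom spans levels from 174 to 3.40 FPKM.

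Of the 9 genes, 0 passed an adjusted p of 0.05 with limma, where 4 of 16286 genes (0.0246%) did, all 4 lower in Ins2AKITA mice. At an unadjusted p under 0.05, 1 of 9 was lower (*Lsr*; 2.93% of all genes tested) and 0 were higher (1.53% of all genes). The fitted log2 fold change of Ins2AKITA over WT was below 0 for 7 members and above 0 for 2, with a median of -0.28 over the members and -0.03 over all genes tested. Both Ins2AKITA mice lay below all WT mice for 1 member, *Lsr* (10.3% of all genes), and above all WT mice for 0 members (9.24% of all genes). Because 3 mice were set against 2, an exact permutation test could not go below p = 0.1. Fold changes are on the log2(FPKM + 1) scale, which understates the change of low genes such as *Cldn12*.

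*Cldn5* (ENSMUSG00000041378, chr16:18776940-18778353, plus strand, NCBIM37) encodes claudin-5, the main claudin of brain endothelium and a determinant of the barrier's tightness to small molecules. Its level was 127, 174 and 76.0 FPKM in WT replicates 1 to 3 and 109 and 80.0 FPKM in Ins2AKITA replicates 1 and 2. WT replicate 3 was the lowest of all 5 mice, and the groups overlapped. The log2 fold change was -0.35 (SE 0.37, 95% interval -1.23 to 0.54), with an adjusted p of 0.90 (limma). The exact permutation test gave p = 0.5. The WT mice spread by more than the difference between the group means, and the fold change was -0.67 without WT replicate 3 and -0.07 without WT replicate 2.

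*Cldn12* (ENSMUSG00000046798, chr5:5505109-5514958, minus strand) encodes claudin-12, a second claudin found in brain vessels. Its level was 3.40, 4.14 and 4.82 FPKM in the WT mice, against 6.73 and 3.92 FPKM in the Ins2AKITA mice. The highest value was that of Ins2AKITA replicate 1, while replicate 2 lay within the WT range. Ins2AKITA over WT came to a log2 fold change of 0.28 (SE 0.35, limma adjusted p = 0.92), on an estimated 13 to 46 fragments per mouse.

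*Ocln* (ENSMUSG00000021638, chr13:101266462-101322673, minus strand) encodes occludin, a membrane protein of the junction strand with regulatory functions. Its level was 31.7, 39.0 and 24.9 FPKM in the WT mice, against 26.1 and 25.3 FPKM in the Ins2AKITA mice. The Ins2AKITA values lay close together, between the lowest WT mouse (replicate 3) and the other WT mice. This gave a log2 fold change of -0.28 (SE 0.24, 95% interval -0.86 to 0.30, limma adjusted p = 0.90). *Cldn5* and *Ocln* put the 5 mice in the same order, from WT replicate 2 down to WT replicate 3, and the ratio of their levels ran from 3.05 to 4.48 over the 5 mice, with both Ins2AKITA mice inside the WT range.

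The adhesion molecules had differences in both directions. *F11r* (ENSMUSG00000038235, chr1:173367666-173394734, plus strand) encodes JAM-A, which joins the junction early and binds polarity proteins. Its level was 6.35, 5.95 and 7.52 FPKM in the WT mice, against 7.35 and 4.75 FPKM in the Ins2AKITA mice. The 2 Ins2AKITA mice lay on either side of the WT mean, replicate 2 being the lowest of all mice and replicate 1 within the WT range. Its log2 fold change was -0.13 (SE 0.30, limma adjusted p = 0.96).

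*Jam2* (ENSMUSG00000053062, chr16:84774368-84826173, plus strand) encodes JAM-B, which is found at endothelial contacts and pairs with JAM-C. Its level was 18.6, 26.0 and 30.2 FPKM in the WT mice, against 29.5 and 26.0 FPKM in the Ins2AKITA mice. Both Ins2AKITA values lay within the WT range, and the log2 fold change was 0.17 (SE 0.26, limma adjusted p = 0.93). *Jam3*, the gene of JAM-C, had a WT mean of 15.8 ± 2.15 FPKM (SD, n = 3) and a log2 fold change of -0.21 (SE 0.27, overlapping groups).

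*Esam* (ENSMUSG00000001946, chr9:37335663-37345904, plus strand) encodes the endothelial cell-selective adhesion molecule, which acts in junction stability and in the passage of leukocytes. Its level was 55.7, 54.1 and 28.2 FPKM in the WT mice, against 33.4 and 30.5 FPKM in the Ins2AKITA mice. Both Ins2AKITA mice were lower than WT replicates 1 and 2, but WT replicate 3 was lower still. Its log2 fold change was -0.45 (SE 0.33, 95% interval -1.24 to 0.34, limma adjusted p = 0.90), and it depended on the WT mice used. Without WT replicate 1 or 2 it was -0.29 or -0.31. Without WT replicate 3 it was -0.76 with an unadjusted p of 0.010 (limma). In that fit 936 of 16376 genes were lower at an unadjusted p under 0.05, against 477 of 16286 with all mice. The adjusted p threshold was not passed in any of these fits.

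*Lsr* (ENSMUSG00000001247, chr7:31742428-31768188, minus strand) encodes LSR or angulin-1, which marks the contacts of 3 cells and brings tricellulin to them. Its level was 28.2, 36.4 and 24.9 FPKM in the WT mice, against 21.7 and 12.3 FPKM in the Ins2AKITA mice. Both Ins2AKITA mice were below every WT mouse, with replicate 2 below replicate 1. The WT mean was 29.8 ± 5.93 FPKM (SD, n = 3) and the Ins2AKITA mean 17.0 ± 6.65 FPKM (SD, n = 2), a ratio of 1.76. The log2 fold change was -0.81 (SE 0.30, 95% interval -1.55 to -0.08), with an unadjusted p of 0.035 and an adjusted p of 0.90 (limma). The exact permutation test gave p = 0.1, the smallest possible value. Without Ins2AKITA replicate 2 the fold change was -0.43, and without replicate 1 it was -1.20.

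The depth behind *Lsr* was an estimated 64, 93 and 137 fragments in the WT mice, against 47 and 31 in the Ins2AKITA mice. The 95% Poisson interval covers counting error only. It was 21.7 to 36.1, 29.3 to 44.4 and 20.8 to 29.3 FPKM in WT replicates 1 to 3. In Ins2AKITA replicates 1 and 2 it was 15.8 to 28.6 and 8.43 to 17.6 FPKM. Ins2AKITA replicate 1 therefore could not be separated at this depth from WT replicates 1 and 3, or from Ins2AKITA replicate 2. The interval of Ins2AKITA replicate 2 lay below those of all WT mice. *Marveld2*, the gene of tricellulin itself, was measured at 0.515, 3.32 and 1.17 FPKM in the WT mice, against 2.75 and 0.549 FPKM in the Ins2AKITA mice, and the groups overlapped. The angulin *Ildr2* had a WT mean of 25.3 ± 3.82 FPKM (SD, n = 3) and a log2 fold change of 0.18 (SE 0.21), while *Ildr1* stayed at or below 0.326 FPKM in every mouse and was not tested.

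The scaffolds were led by *Tjp1* (ENSMUSG00000030516, chr7:72441051-72516125, minus strand), the gene of ZO-1, which links claudins and occludin to actin. Its level was 53.2, 60.4 and 61.0 FPKM in the WT mice, against 46.0 and 64.8 FPKM in the Ins2AKITA mice. The 2 Ins2AKITA mice were the lowest and the highest of all 5. The log2 fold change was -0.09 (SE 0.21, 95% interval -0.60 to 0.43, limma adjusted p = 0.96), the smallest SE of the 9 genes. Its paralog *Tjp3* (ZO-3), at 0.648 ± 0.417 FPKM (SD, n = 3) in WT mice, was not tested.

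*Cgnl1* (ENSMUSG00000032232, chr9:71474316-71619409, minus strand) encodes paracingulin, a scaffold shared by tight and adherens junctions. Its level was 43.0, 40.6 and 43.2 FPKM in the WT mice, against 43.5 and 21.8 FPKM in the Ins2AKITA mice. The WT mice were nearly level, Ins2AKITA replicate 1 was the highest of all mice by a small margin, and replicate 2 alone was low. This gave a log2 fold change of -0.44 (SE 0.30, limma adjusted p = 0.90). Without Ins2AKITA replicate 2 it was 0.04, and without replicate 1 it was -0.92, each resting on 1 Ins2AKITA mouse. Its paralog *Cgn* (cingulin) was lower, at 3.47 ± 1.97 FPKM (SD, n = 3) in WT mice, with a log2 fold change of -0.12 (SE 0.52).

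**Figure D2:**
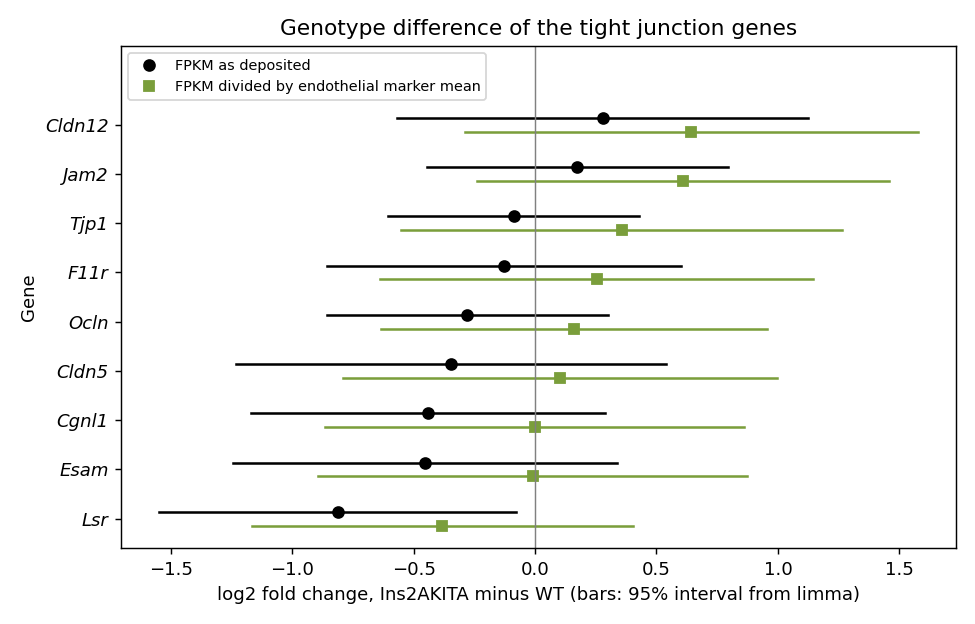
Log2 fold change of Ins2AKITA over WT for the 9 genes on the log2(FPKM + 1) scale, with 95% limma intervals, for the deposited FPKM and for values scaled to 12 endothelial markers. With the deposited values the interval of *Lsr* (-1.55 to -0.08) is the only one that does not include 0, and after the scaling it runs from -1.17 to 0.40.

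Mice of the same genotype differed from each other. WT replicate 3 had the lowest WT value of 4 of the 9 members (*Cldn5*, *Ocln*, *Esam* and *Lsr*), near the share of all genes tested (40.1%). It had the highest WT value of the other 5, a share that was not counted over all genes. Ins2AKITA replicate 2 was below replicate 1 for 8 of 9 members, all but *Tjp1*, against 50.4% of all genes tested. The library of WT replicate 3 was also the deepest, at an estimated 2848750 fragments, the other 4 holding between 1127609 and 1320135. Without WT replicate 3 the groups did not overlap for 5 members. *Cldn5*, *Ocln*, *Esam* and *Lsr* were then below (23.5% of all genes with that mouse left out) and *Jam2* was above the remaining WT mice (18% of all genes). Which of the WT mice is typical was not tested.

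Marker genes of the cell types in the fragments gave values to set beside these. The 12 endothelial markers, among them *Pecam1* and *Cdh5*, were all above 0 in every mouse. So were the 6 oligodendrocyte and 6 neuron markers, with summed FPKM of 1926 to 2613 and 607 to 651 in the WT mice. Of the endothelial markers, 11 of the 12 had a log2 fold change below 0 (median -0.46, and -0.23 or -0.65 without Ins2AKITA replicate 2 or 1). Their summed FPKM was 543, 749 and 482 in the WT mice, against 490 and 374 in the Ins2AKITA mice, so that WT replicate 2 was the highest and Ins2AKITA replicate 2 the lowest, and replicate 2 was below replicate 1 for 12 of 12. All 4 smooth muscle markers had a fold change below 0 (median -0.66), and all 7 astrocyte markers had a fold change above 0 (median 0.52, summed FPKM 2118 to 2927 in WT and 3338 and 3933 in Ins2AKITA mice). The summed FPKM of the 7 pericyte markers was 197 to 246 in WT and 221 and 171 in Ins2AKITA mice (median -0.36, and 0.02 or -0.63 without Ins2AKITA replicate 2 or 1). Both Ins2AKITA mice lay below all WT mice for 4 of 12 endothelial, 4 of 4 smooth muscle, 1 of 7 pericyte and 0 of 7 astrocyte markers (10.3% of all genes), and above them for 4 of the 7 astrocyte markers and none of the other 3 lists (9.24% of all genes). No gene of the endothelial, smooth muscle, astrocyte and pericyte lists passed the adjusted p threshold of limma, with 3, 3, 1 and 0 genes at an unadjusted p under 0.05. Those of the endothelial and smooth muscle lists were lower in Ins2AKITA mice (2.93% of all genes tested), and that of the astrocyte list was higher (1.53%). The part of these markers in the member values was not tested beyond the scaling below.

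**Figure D3:**
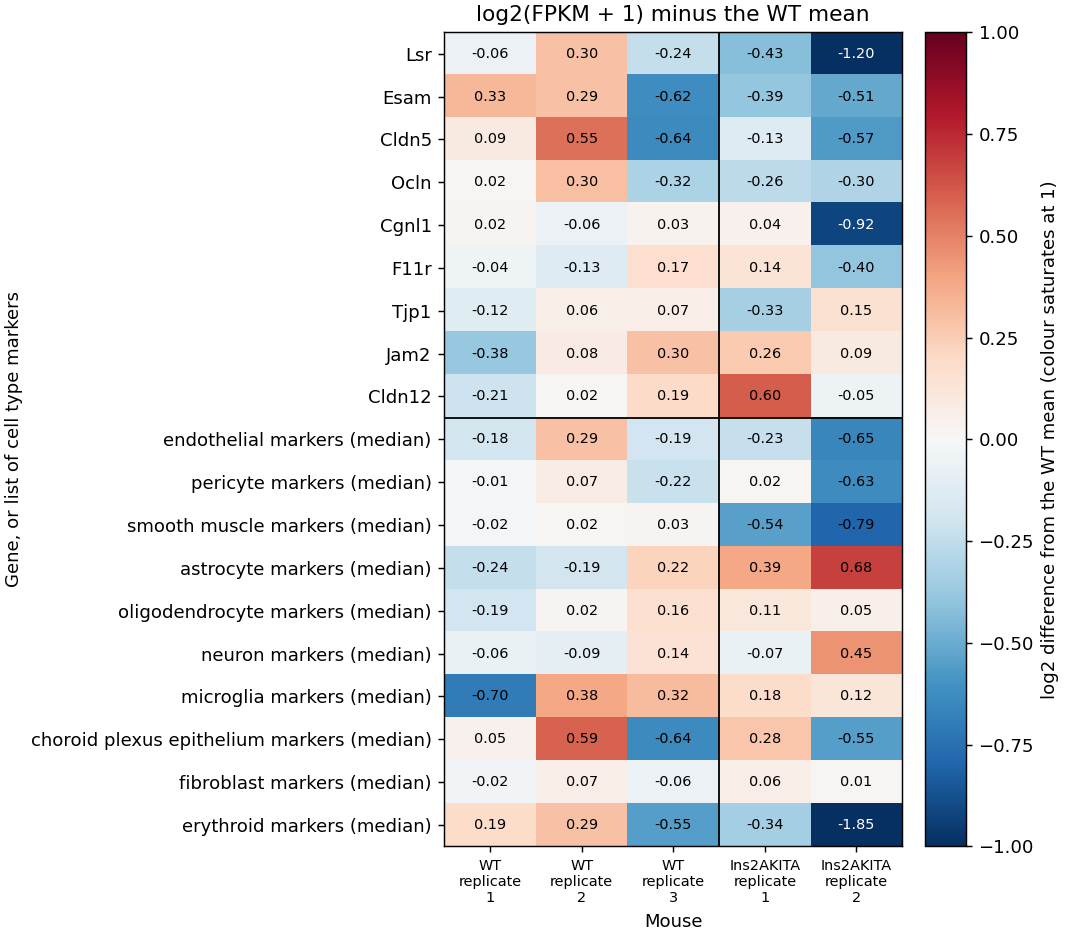
Each mouse's log2(FPKM + 1) minus the WT mean, for the 9 genes and as the median of each list of cell type markers, with lower values in blue and higher values in red. Ins2AKITA replicate 2 has the lowest endothelial median (-0.65) and the lowest *Lsr* (-1.20) and *Cgnl1* (-0.92), and the colour saturates at a difference of 1, beyond which *Lsr* and the erythroid median (-1.85) of that mouse lie.

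When each mouse was scaled to the geometric mean of the 12 endothelial markers, the fold changes of all genes tested were centred on a median of 0.37 and those of the 9 members on 0.16 (log2). *Lsr* was then 28.0, 25.2 and 24.8 in the WT mice, against 22.6 and 17.1 in the Ins2AKITA mice, in scaled FPKM. The Ins2AKITA mice still lay below all WT mice, with a smaller log2 fold change of -0.38 (95% interval -1.17 to 0.40) and an exact permutation p of 0.1. *Cgnl1* and *Esam* came to -0.0017 and -0.01, and *Cldn5*, *Ocln*, *Tjp1* and *F11r* turned to values above 0 (0.10, 0.16, 0.36 and 0.25). *Cldn12* and *Jam2*, at 0.64 and 0.61, were then above all WT mice in both Ins2AKITA mice, as were 23.8% of all genes under this scaling, against 2.44% below as *Lsr* was. All 4 of the members that turned, and *Esam* and *Cgnl1*, were below the shifted median of all genes. Ratios to a single gene, chosen after the values had been seen, depended on the gene divided by. *Lsr* over *Cdh5* was 0.872, 0.817 and 0.805 in the WT mice, against 0.866 and 0.559 in the Ins2AKITA mice, so that replicate 2 alone was below the WT range, but *Cdh5* was itself below all WT mice in both. *Lsr* over *Cldn5* was 0.222, 0.209 and 0.327 in the WT mice, against 0.199 and 0.153 in the Ins2AKITA mice, and *Lsr* over *Ildr2* was 0.952, 1.51 and 1.12, against 0.808 and 0.402, so that both Ins2AKITA mice were below all WT mice in these 2 ratios. *Lsr* over *Pecam1* was 0.304, 0.400 and 0.378 in the WT mice, against 0.343 and 0.210 in the Ins2AKITA mice. There replicate 1 was inside the WT range and replicate 2 below it, and *Pecam1* was itself below all WT mice in both. *Esam* over *Pecam1* was 0.600, 0.594 and 0.429 in the WT mice, against 0.529 and 0.523 in the Ins2AKITA mice, inside the WT range.

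The wider tight junction list held 52 further genes, of which 35 passed the filter, 17 were at 0 in at least 1 mouse and 4 (*Cldn4*, *Cldn7*, *Cldn16* and *Cldn18*) were at 0 in all 5. Of the 35 tested, 0 passed the adjusted p threshold of limma. At an unadjusted p under 0.05, 1 was lower in Ins2AKITA mice, near the share of all genes tested (2.93%), and 0 were higher (1.53%). The log2 fold change was below 0 for 16 and above 0 for 19, with a median of 0.06. *Csda*, which encodes a Y-box transcription factor bound and held back by ZO-1 and is called *Ybx3* in RefSeq, was the lowest. It stood at 22.4, 17.7 and 16.5 FPKM in the WT mice, against at 8.67 and 10.7 FPKM in the Ins2AKITA mice, without overlap. Its log2 fold change was -0.89 (SE 0.24), with an unadjusted p of 0.0095 and an adjusted p of 0.90 (limma), and the exact permutation p was 0.1. The next lowest was *Igsf5*, a junctional adhesion molecule, at -0.63 (SE 0.69), a low gene listed at 0 in Ins2AKITA replicate 2. The highest were *Pard6g* at 0.49 (SE 0.38) and *Pard6a* at 0.44 (SE 0.30), both encoding PAR6 subunits of the polarity complex that positions the junction. The Ins2AKITA mice lay above all WT mice for 5 of the 35 (*Mpdz*, *Mpp5*, *Pard6a*, *Pard6g* and *Prkcz*; 9.24% of all genes) and below them for 3 (*Csda*, *Sympk* and *Pard6b*; 10.3% of all genes). None of these 8 other than *Csda* had an unadjusted p under 0.05.

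Of the other claudins, 6 had a WT mean of at least 1 FPKM. The highest was the gene the annotation calls *Cldn25* (ENSMUSG00000022744, named *Cldnd1* in RefSeq), at 34.1 ± 8.28 FPKM (SD, n = 3), above *Ocln* and below *Cgnl1* by the means. *Cldn10* followed at 12.8 ± 4.07 FPKM and *Cldn11*, the claudin of myelin, at 8.78 ± 2.42 FPKM (SD, n = 3). *Cldn2*, a pore-forming claudin of the choroid plexus, and *Cldn1* had WT means of 3.50 ± 2.40 and 1.98 ± 0.946 FPKM (SD, n = 3). *Cldn20* was 8.16 FPKM in Ins2AKITA replicate 1 and listed at 0 in replicate 2, against 0.810 to 1.97 FPKM in the WT mice. That gene is short (chr17:3532554-3533213), so that each of its values rests on a few fragments at most and lies near the floor. The groups overlapped for each of these claudins, with log2 fold changes from 0.01 (*Cldn2*) to 0.35 (*Cldn25*) and a largest SE of 0.94 (*Cldn20*).

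**Figure D4:**
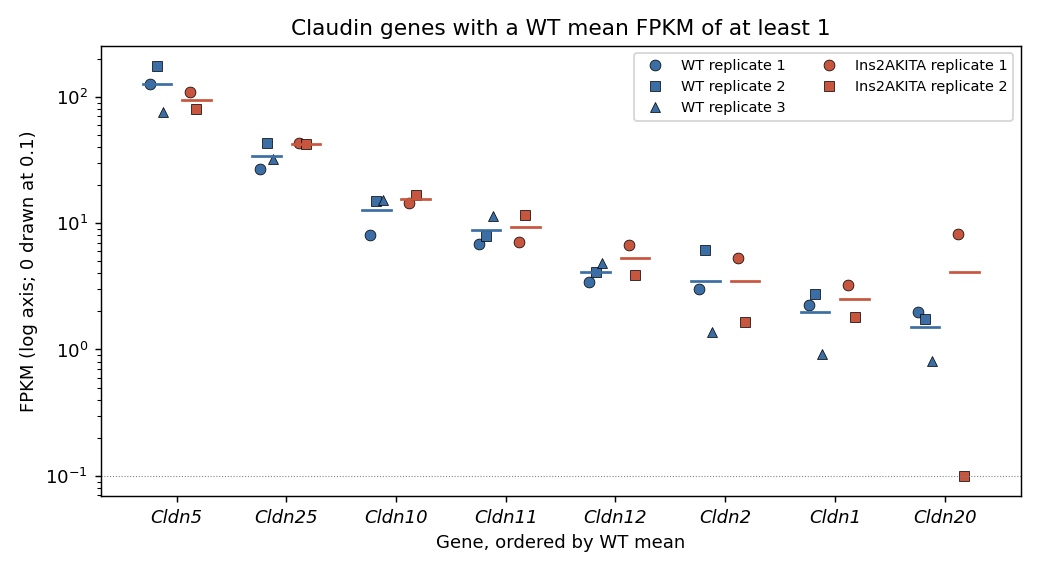
FPKM of the claudins with a WT mean of at least 1 on a log axis, with 1 point per mouse (3 WT, 2 Ins2AKITA). *Cldn5* lies between 76.0 and 174 FPKM, above *Cldn25* (26.8 to 43.4 FPKM) and every other claudin in all 5 mice.

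Adherens junctions lie next to the tight junctions and share *Cgnl1*. Of 14 such genes tested, 6 had a fold change below and 8 above 0, with a median of 0.09. The adjusted p threshold of limma was passed by 0, and 1 had an unadjusted p under 0.05, lower in Ins2AKITA mice (2.93% of all genes tested). That gene was *Cdh5*, which encodes VE-cadherin, the main cadherin of endothelium. It stood at 32.3, 44.5 and 30.9 FPKM in the WT mice, against 25.0 and 21.9 FPKM in the Ins2AKITA mice, without overlap. The log2 fold change was -0.58 (SE 0.23), with an unadjusted p of 0.045, an adjusted p of 0.90 (limma) and an exact permutation p of 0.1. *Cdh5* was the lowest of the list and also 1 of the 12 endothelial markers. The highest was *Cd99l2*, an adhesion protein used by leukocytes that cross the endothelium, at 0.30 (SE 0.24) with overlapping groups.

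The genes with the pattern over the 5 mice most like that of *Lsr* were *Dnmt3a*, a DNA methyltransferase, *Stk10*, a kinase, and *2310014H01Rik*. Their root mean square differences from *Lsr* in centred log2(FPKM + 1) were 0.04, 0.06 and 0.09, the smallest among 10471 protein-coding genes with a mean FPKM of at least 5. *Dnmt3a* was 90.2, 115 and 74.9 FPKM in the WT mice, against 70.6 and 40.4 FPKM in the Ins2AKITA mice, following *Lsr* mouse by mouse. For *Cldn5* they included *Fhit* and *Gm4392* (0.07 and 0.07), and for *Ocln* they were *Acsf3*, *Chrnb2* and *Zxdc* (0.03, 0.04 and 0.05). None of these 8 was on the endothelial marker list. These likenesses over 5 mice are a description and carry no test.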

How the data were processed

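Brain microvascular fragments of 3 WT and 2 Ins2AKITA mice were profiled by RNA sequencing, with 1 library per mouse. The authors depleted ribosomal RNA, made stranded libraries, mapped reads to NCBIM37 with TopHat2 2.0.4, removed duplicated reads with Picard 1.92 and used Cufflinks 2.2.1, per the submitters' processing notes. They deposited FPKM per gene identifier and mouse. Which program produced the FPKM of each mouse is not given in the sources used here. Removing duplicates can lower highly expressed short genes.

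Identifiers (37197 of 37982 matched) were named with the GENCODE vM1 annotation and summed per symbol. Genes with a mean FPKM of at least 1 were tested on log2(FPKM + 1) with limma 3.58.1 in R 4.3.3 (lmFit, eBayes with trend, two-sided, genotype only), with Benjamini-Hochberg adjustment over all genes at 0.05. Exact two-sided permutation tests used all 10 arrangements of the mice. Python 3.11.15 with pandas 2.3.3 and scipy 1.17.1 did the rest. The limma p-values set the difference between the groups against the spread between these mice, drawn toward a trend over all genes. With 1 library per mouse, that spread also holds the error of isolation and counting. On simulated data the fit returned the mean of a large added shift. That check does not measure power or error rates at the size of the member fold changes.

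Fragments per mouse (1127609 to 2848750) were estimated from low FPKM values of genes with 1 transcript over 800 bases, of which 97.15% to 97.51% lay within 0.02 of a whole multiple of 1 fragment once lengths were shortened by 223 to 229 bases. For genes with several transcripts the length of the longest coding transcript was used, so their fragment numbers are approximate.

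The members, lists and tests were chosen with earlier results of these data known. Named were all members, the claudins with a WT mean of at least 1 FPKM, the paralogs of members, the 2 highest and 2 lowest genes of the wider list and any with an unadjusted p under 0.05, *Cdh5* and the extremes of the adherens list, and the 3 genes closest in pattern to *Cldn5*, *Ocln* and *Lsr*. The 8 genes of the wider list without overlap, the genes at 0, *Cldn3* and single marker genes were named after their values were seen. Some genes that this rule names are not reported here. As alternatives, median-ratio scaling, TPM, a pseudocount of 0.1, a filter at 5 or none, endothelial marker scaling, the replicate number as a block and the omission of each mouse were run. Omitting an Ins2AKITA mouse left 1 mouse in that group, which was assumed to vary like the WT mice.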

Additional observations from a re-analysis of the deposited data

How the results depend on the processing

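No member passed the adjusted p threshold of limma under any of the alternatives run. Of the recomputed member fold changes, 91 kept their direction and side of the threshold and 16 changed sign. A change of filter cannot move a fold change, and the block repeats the fold changes without WT replicate 3, so that not all of these are separate checks. Under TPM, where the median of all genes shifted by 1.25 and 58 genes were called, *Cldn5* came to 1.32, *Ocln* 1.23, *Tjp1* 1.501, *F11r* 0.84, *Esam* 1.13, *Lsr* 0.70 and *Cgnl1* 1.10, all but *Cldn5* and *Tjp1* below that shift. The medians there were 1.13 for the members, 1.41 for the wider tight junction list and 1.44 for the adherens list, and both Ins2AKITA mice lay above all WT mice for 3 members (33.2% of all genes) and below for 0 (0.632%). Under endothelial marker scaling the signs of *Cldn5* (0.10), *Ocln* (0.16), *Tjp1* (0.36) and *F11r* (0.25) turned, the medians were 0.16, 0.42 and 0.53, and 3 members had groups that did not overlap, 1 below (2.44% of all genes) and 2 above (23.8%). The cause was not tested.

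Leaving out 1 mouse at a time moved the member median between -0.42 and -0.13, the wider list's between 0.02 and 0.10, the adherens list's between -0.15 and 0.15, the members without overlap between 1 and 5 (without 1 mouse, 14.5% to 27.9% of all genes lay below and 13.8% to 26.1% above) and the genes called between 3 and 12. *Jam2* was -0.016 without WT replicate 1 (at most 0.32), *Cldn12* was -0.048 (at most 0.60) and *Tjp1* 0.15 (at least -0.33) without Ins2AKITA replicate 1, and *F11r* was 0.14 (at least -0.40) and *Cgnl1* 0.041 (at least -0.92) without Ins2AKITA replicate 2. *Lsr* ranged from -1.20 to -0.43. Among the fits that left out a WT mouse, its unadjusted p stayed under 0.05 only without WT replicate 3. Without a filter and with a filter at 5, which left out *Cldn12*, 2 genes were called. With the replicate number as a block, WT replicate 3 had no Ins2AKITA partner, so that the fold changes repeat those without that mouse. The member median was -0.42, and 5 genes were called. *Esam* (-0.76) had an unadjusted p under 0.05 in place of *Lsr* (-0.93), where 809 of 16286 genes were lower at that p. Same-numbered mice did not deviate together (r = 0.05 and -0.03 across genes). With 2 Ins2AKITA mice, whose deviations mirror each other, these values cannot tell whether such mice share more than a number. The labels state no pairing. Depth limits *Cldn12* and *F11r* most.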

Other observations

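Some claudins that epithelium of the choroid plexus also uses varied between mice of one genotype. *Cldn2* was 3.04, 6.10 and 1.37 FPKM in the WT mice, against 5.35 and 1.66 FPKM in the Ins2AKITA mice, and *Cldn1* was 2.27, 2.76 and 0.929 FPKM and 3.23 and 1.80 FPKM. For both, WT replicate 3 was the lowest of all mice. The choroid plexus markers had the same lowest WT mouse: *Ttr*, which encodes transthyretin, was 1785, 1993 and 669 FPKM in the WT mice, against 1790 and 960 FPKM in the Ins2AKITA mice, and the summed FPKM of the 5 markers was 1838, 2066 and 698 in WT and 1847 and 990 in Ins2AKITA mice. All 5 had a fitted fold change below 0 (median -0.09), and 0 passed an unadjusted p of 0.05. Other claudins did not follow this order. *Cldn3* was 0.829, 0.732 and 1.36 FPKM in the WT mice, against 1.72 and 0.754 FPKM in the Ins2AKITA mice. *Cldn11* was 6.88, 7.95 and 11.5 FPKM, against 7.12 and 11.5 FPKM. For both of these, WT replicate 3 was the highest of the WT mice. The part of this tissue in the claudin values was not tested.

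The remaining marker lists are given by their values. The median log2 fold change was -0.03 for 6 oligodendrocyte markers, 0.22 for 6 neuron markers, 0.16 for 6 microglia markers, 0.00 for the 4 fibroblast markers tested and -1.09 for 5 erythroid markers. Of these, only 1 erythroid gene had an unadjusted p under 0.05, lower in Ins2AKITA mice (2.93% of all genes tested), and 0 passed the adjusted threshold of limma. Without Ins2AKITA replicate 2 the erythroid median was -0.34 and the neuron median -0.07, and without replicate 1 they were -1.85 and 0.45. The microglia median was -0.17 without WT replicate 1, and the choroid plexus median 0.26 without WT replicate 2 and 0.28 without Ins2AKITA replicate 2. The erythroid sum was 60.1, 67.7 and 35.1 FPKM in the WT mice, against 32.4 and 25.1 FPKM in the Ins2AKITA mice.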
